A study of Homo sapiens with 2 samples.

Results

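The kinesin genes were taken as the protein-coding RefSeq genes whose symbol is KIF followed by digits and, in most cases, a letter. The rule found 39 of 20037 protein-coding genes on chromosomes 1 to 22, X and Y. Their ETV4 binding was read from the peaks of 1 anti-Flag ChIP-seq library, with 1 input library as its control. The cells were A549, a human NSCLC line, in which endogenous ETV4 had been knocked down with an shRNA (A549-shETV4) and a Flag-tagged ETV4 had been put back by transfection, so the peaks are those of the exogenous protein. The input reads were not analysed here beyond the control level that the peaks carry. The immunoprecipitate had no replicate. No SD and no test between conditions could be given, and a list of peaks gives no RNA levels, so the identity of the cells was not checked against marker genes.

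Kinesins are motor proteins that use ATP to move along microtubules or to take microtubules apart. One group works in the mitotic spindle and at the midbody, where its members separate the spindle poles, move chromosomes, shorten microtubules or finish cytokinesis, and many genes of this group are switched on late in the cell cycle. Another group carries vesicles, organelles, RNA and the building blocks of cilia through the cytoplasm, in neurons over long axons. ETV4 belongs to the PEA3 subgroup of ETS factors, which bind DNA sites with a GGAA core. Of the 39 genes, 13 were put in the mitotic class, 13 in the transport class, and the other 13 in a class of ciliary, signalling, atypical or mixed roles.

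ETV4 peaks were found at most kinesin genes, and they were much weaker at the mitotic than at the transport genes. A peak lay within 1 kb of either outer end of the gene for 32 of the 39 kinesin genes (82.1%, Wilson 95% confidence interval 67.3% to 91.0%), against 62.1% of all protein-coding genes. By class these were 10 of 13 mitotic genes (76.9%, 49.7% to 91.8%), 12 of 13 transport genes (92.3%, 66.7% to 98.6%) and 10 of 13 others. The shares of the classes had overlapping intervals. What set the classes apart was the size of the peaks. For each gene the strongest peak was taken by its fold enrichment, the ratio of the pileup of fragments at the summit to the control level, and a gene without a peak was ranked lowest. The median over all 13 genes was 4.34 in the mitotic class, 19.3 in the transport class, 4.44 times higher, and 10.1 in the other class. The median over all protein-coding genes, with the same treatment of genes without a peak, was 7.81. Of the mitotic genes 9 were below that median, and of the transport genes 11 were above it. That median is lowered by the genes without a peak. Among the genes with a peak the median was 17.6, and 22 of the 32 kinesin genes with a peak lay below it, all 10 mitotic genes among them, while 7 of the 12 transport genes lay above it.

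At higher thresholds the classes moved apart. A peak with a fold over 5 was at 6 mitotic genes (46.2%, 23.2% to 70.9%) and at 12 transport genes, against 57.5% of all protein-coding genes. A peak with a fold over 10 was at 3 mitotic genes (23.1%, 8.18% to 50.3%), at 11 transport genes (84.6%, 57.8% to 95.7%) and at 7 others (53.8%, 29.1% to 76.8%), against 45.2% of all protein-coding genes. The mitotic and transport intervals did not overlap at this threshold. At a fold over 5 they did overlap, the transport interval being 66.7% to 98.6%. These intervals treat the genes of a class as independent draws, so their separation at 1 threshold is a description only. No test of the difference was made, because genes are not replicates of a condition and the lists were drawn up with earlier results of these data known. The highest fold in the mitotic class was 16.2, and 7 transport genes lay above it.

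**Figure D1:**
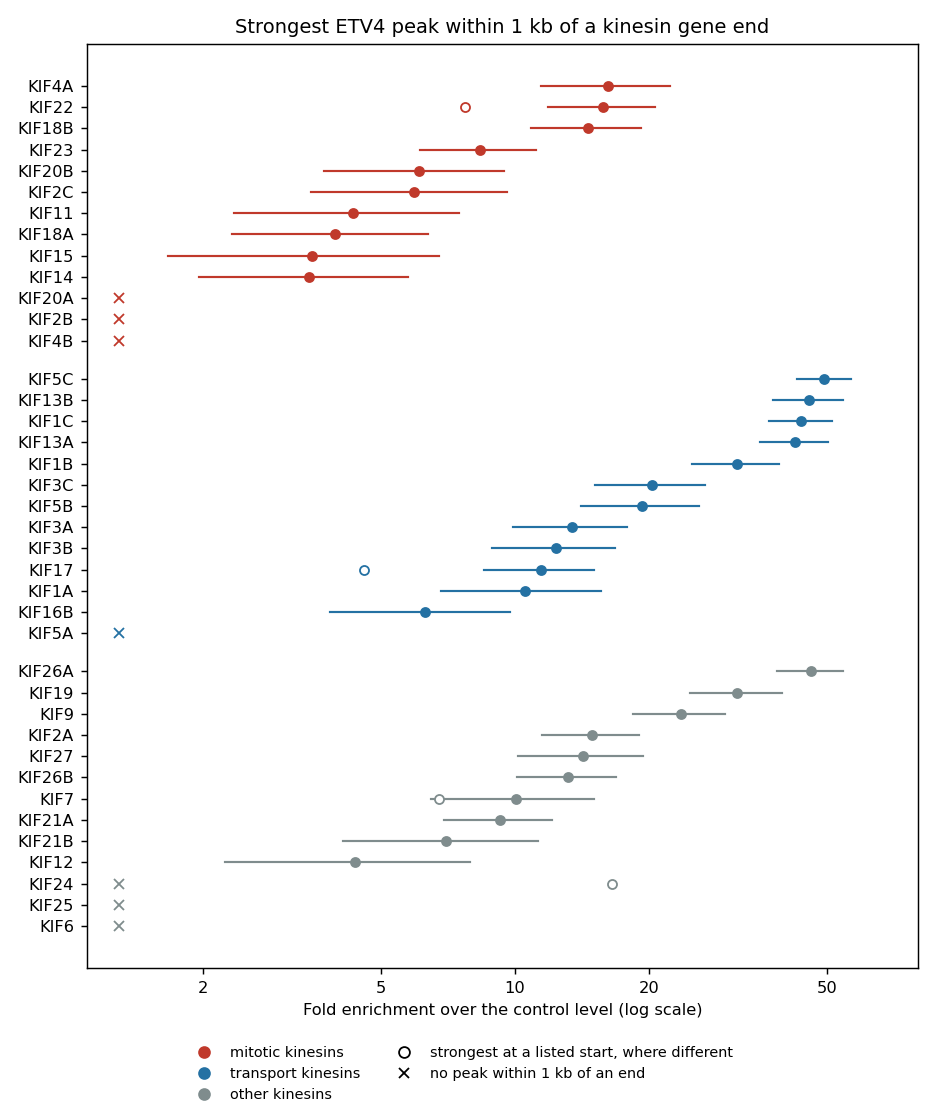
Fold enrichment (horizontal, log scale) of the strongest ETV4 peak within 1 kb of an outer end of each of the 39 kinesin genes, grouped by class. Lines span the fold at the exact Poisson 95% limits of the summit pileup with the control level held fixed, open circles give the strongest peak at a listed start where it is another one, and crosses mark genes without a peak at the ends. The mitotic genes reach 16.2 and the transport genes 49.3.

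**Figure D2:**
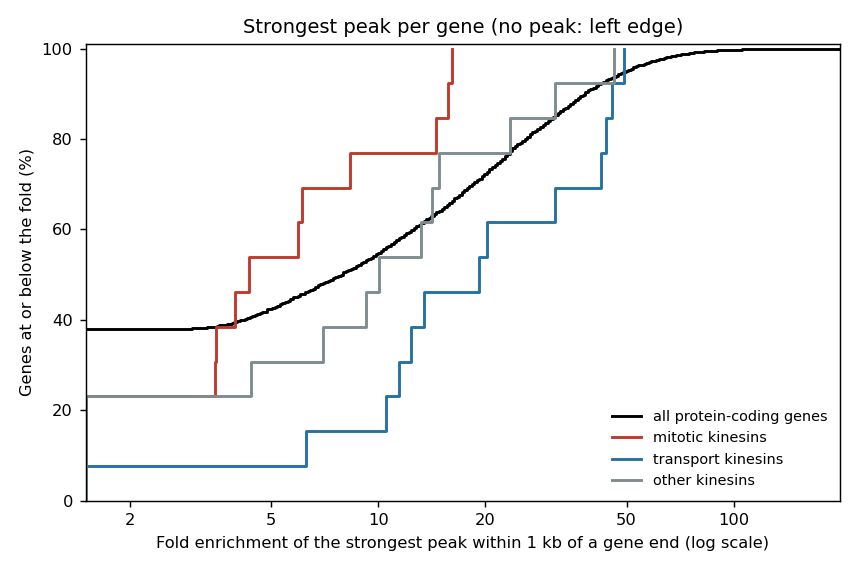
Share of genes (vertical, in percent) whose strongest peak within 1 kb of an end is at or below a given fold enrichment (horizontal, log scale), for all 20037 protein-coding genes and for the 3 kinesin classes of 13 genes. Genes without a peak enter at the left edge, so each curve starts at the share without one. Above a fold of 10 lie 23.1% of the mitotic, 84.6% of the transport, 53.8% of the other and 45.2% of all protein-coding genes.

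The start regions of 5 kinesin genes are printed to show both ends of this range, a pair of strong transport peaks, the strongest and a weak mitotic peak, and a mitotic gene without a peak. Each window runs 5′ to 3′ in the direction of the gene, from 250 bases before its first base to 50 bases from it on, on GRCh38.p14 as given by RefSeq. Capitals mark CCGGAA, a longer form of the ETS site, and TTTGAA, the core of the CHR element found in many late cell cycle promoters, each on either strand, so that the complements read TTCCGG and TTCAAA.
KIF5C (chr2:148874977-148875276, plus strand): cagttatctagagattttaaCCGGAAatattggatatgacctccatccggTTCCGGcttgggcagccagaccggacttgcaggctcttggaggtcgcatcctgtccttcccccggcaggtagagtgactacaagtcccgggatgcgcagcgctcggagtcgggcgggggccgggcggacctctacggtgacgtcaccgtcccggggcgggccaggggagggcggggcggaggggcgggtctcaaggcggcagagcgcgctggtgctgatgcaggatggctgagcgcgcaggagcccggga
KIF13A (chr6:17987586-17987885, minus strand): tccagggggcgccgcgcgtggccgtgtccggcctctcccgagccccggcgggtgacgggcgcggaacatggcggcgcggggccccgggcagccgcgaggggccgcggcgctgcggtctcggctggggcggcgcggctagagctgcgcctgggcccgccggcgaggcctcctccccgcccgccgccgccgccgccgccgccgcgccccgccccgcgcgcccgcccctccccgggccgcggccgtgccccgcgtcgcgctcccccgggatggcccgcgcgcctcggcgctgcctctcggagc
KIF4A (chrX:70289854-70290153, plus strand): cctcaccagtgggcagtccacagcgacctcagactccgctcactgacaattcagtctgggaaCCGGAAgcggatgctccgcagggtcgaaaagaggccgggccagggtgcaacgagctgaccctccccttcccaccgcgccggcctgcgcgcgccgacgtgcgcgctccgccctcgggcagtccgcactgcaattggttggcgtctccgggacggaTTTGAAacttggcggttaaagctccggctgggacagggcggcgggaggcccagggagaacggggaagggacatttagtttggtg
KIF11 (chr10:92592880-92593179, plus strand): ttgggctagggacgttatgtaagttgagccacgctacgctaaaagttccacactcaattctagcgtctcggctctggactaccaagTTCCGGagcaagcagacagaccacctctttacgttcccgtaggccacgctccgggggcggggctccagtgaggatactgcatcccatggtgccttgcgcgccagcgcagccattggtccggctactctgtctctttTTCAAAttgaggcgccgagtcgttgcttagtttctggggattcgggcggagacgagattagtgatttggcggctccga
KIF20A (chr5:138178862-138179161, plus strand): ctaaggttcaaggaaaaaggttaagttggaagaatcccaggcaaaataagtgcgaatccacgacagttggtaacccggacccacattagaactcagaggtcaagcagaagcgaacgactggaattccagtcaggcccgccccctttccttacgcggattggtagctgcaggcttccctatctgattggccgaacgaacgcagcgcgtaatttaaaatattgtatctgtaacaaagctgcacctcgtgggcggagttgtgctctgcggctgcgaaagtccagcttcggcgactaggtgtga

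KIF5C holds 2 matches of the longer ETS form, 230 and 200 bp upstream of its start, and none of TTTGAA. The window of KIF13A, of which 87.0% is G and C, holds neither motif. Its peak is among the strongest, but the summit lay 338 bp upstream of the start. That is outside the window, so the letters under the summit were not searched. KIF4A and KIF11 each hold 1 match of both motifs, and in both genes TTTGAA begins near the start, 34 bp upstream of it in KIF4A and 28 bp in KIF11. KIF20A holds neither motif. A match is a description of the letters and does not show that the site was bound.

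Among the transport genes, the conventional kinesin heavy chains KIF5A, KIF5B and KIF5C, which carry mitochondria, vesicles and mRNA, spanned the whole range. KIF5C, expressed mainly in neurons, had the strongest peak at an end of any kinesin gene, on chromosome 2 from 148874615 to 148875864, with a fold of 49.3. Its summit lay 193 bp upstream of the gene, where 198 fragments were piled up (171 to 228, the exact 95% interval of a Poisson count, given in brackets for pileups from here on). The control level at that summit was 3.04. Of the 12444 protein-coding genes with a peak at an end, 91.9% had a fold at or below it. The summit was 7 bp from the first letter of the nearer CCGGAA match and 37 bp from that of the other. KIF5B, the ubiquitous member of the group, had a peak with a fold of 19.3 and 43 fragments (31.1 to 57.9), whose summit was 201 bp inside the gene. KIF5A, the other neuronal member, had no peak within 1 kb of an end. Its nearest peak was 2.87 kb away, with a fold of 4.83.

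The transport genes KIF1A, KIF1B, KIF1C, KIF13A, KIF13B and KIF16B encode motors for synaptic vesicles, mitochondria, dense-core vesicles and endosomes. KIF13B had a fold of 45.4 with 121 fragments (100.4 to 145), KIF1C 43.7 with 146 (123 to 172), and KIF13A 42.3 with 131 (109.5 to 155). The pileup intervals of these 3 genes overlapped, and each lay wholly below that of KIF5C except the interval of KIF1C, which touched it. The KIF1C peak, on chromosome 17 from 4997362 to 4998871, also lay within 1 kb of an end of INCA1. KIF1B had a fold of 31.4 with 78 fragments (61.7 to 97.3) and a summit 484 bp upstream of its outermost start. KIF1A, a neuronal motor, had a fold of 10.5 with 23 fragments (14.6 to 34.5). RefSeq lists 3 starts for KIF1A, and the summit lay 506 bp downstream of the nearest of them. KIF16B, which moves early endosomes, had a fold of 6.28 with 18 fragments (10.7 to 28.4), the lowest of the transport genes with a peak.

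The heterotrimeric and related kinesins, among them motors that build cilia, had peaks of middle strength. KIF3A, KIF3B and KIF3C, of which the KIF3A product pairs with either of the other two, had folds of 13.4, 12.4 and 20.3. Their pileups were 46 fragments (33.7 to 61.4), 39 (27.7 to 53.3) and 50 (37.1 to 65.9), with overlapping intervals. The summits were 119 bp inside KIF3A, 47 bp upstream of KIF3B and 164 bp inside KIF3C. KIF17, a ciliary and dendritic motor, was a different case. The strongest of its 3 peaks, with a fold of 11.4, lay beyond its 3′ end and covered an end of DDOST, 389 bp from its summit, so it cannot be given to KIF17 alone. At the start of KIF17 itself the fold was 4.59 with 13 fragments (6.92 to 22.2).

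Among the mitotic genes, the spindle motors that drive pole separation had weak peaks. KIF11, which encodes the bipolar motor Eg5, had a peak on chromosome 10 from 92592807 to 92593434 with a fold of 4.34, which rested on 11 fragments (5.49 to 19.7) over a control of 1.77. KIF15, which can take over from Eg5, had 7 fragments (2.81 to 14.4), the lowest pileup among the strongest peaks of all kinesin genes, and a fold between those of KIF14 and KIF18A. Its peak had a summit 160 bp from an end of KIAA1143 and 335 bp upstream of KIF15. With counts this low, the order of KIF11, KIF14, KIF15 and KIF18A by fold was within counting error.

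The genes for motors at chromosomes and kinetochores ranged more widely. KIF4A, a chromosome arm motor that also acts at the midzone, had the highest fold at an end of a mitotic gene, 16.2. Its peak, on chromosome X from 70289704 to 70290445, had 36 fragments (25.2 to 49.8) over a control level of 1.29. The strongest peaks of KIF22, KIF18B and KIF23 had more fragments, 52, 50 and 44. The order of KIF4A, KIF22 and KIF18B by fold was within counting error. The summit of the KIF4A peak lay 145 bp upstream of KIF4A and 43 bp from the CCGGAA match. It was 32 bp from an end of PDZD11, so the peak is shared with that gene. KIF4B, an intronless copy of KIF4A, had its nearest peak 19.5 kb from an end. KIF22, a chromokinesin, had a fold of 15.8 at its 3′ end, in a peak that also lay within 1 kb of an end of MAZ, and a fold of 7.71 with 19 fragments (11.4 to 29.7) at its start. The start peak of KIF22 had its summit 16 bp from a CCGGAA match. In KIF18A, KIF20B, KIF14, KIF11 and KIF23 the start summit was farther from the match, at 109, 265, 283, 335 and 587 bp. KIF18A and KIF18B shorten spindle microtubules or damp their growth, and they differed. KIF18B had a fold of 14.6 with 50 fragments (37.1 to 65.9), KIF18A a fold of 3.96 with 15 fragments (8.40 to 24.7), and these intervals did not overlap. The KIF18A peak also covered an end of METTL15, 160 bp from its summit.

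KIF2C, which encodes the microtubule-depolymerising MCAK, had 2 weak peaks at its 5′ end. The stronger, with a fold of 5.95 and 15 fragments (8.40 to 24.7), had its nearer edge 982 bp from the gene, just inside the 1 kb window, and the other, with a fold of 2.97, had its summit 95 bp inside the gene. The nearest members outside the window were KIF24, at 2.66 kb, and KIF5A. KIF2A, a close relative of KIF2C with roles in both the spindle and neurons, was kept in the other class and had a fold of 14.9 with 64 fragments (49.3 to 81.7). KIF2B, a mitotic relative of both, had its nearest peak 292 kb from an end.

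The genes for cytokinesis motors varied. KIF23, which encodes the MKLP1 subunit of centralspindlin, had a fold of 8.35 with 44 fragments (32.0 to 59.1) and a control level of 4.39, the highest of the mitotic class. KIF20B had a fold of 6.08 with 18 fragments, and KIF14 a fold of 3.47 with 13 (6.92 to 22.2). KIF20A, which encodes MKLP2, had no peak at its ends, and the nearest one lay 66.9 kb away.

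In the class of other roles, KIF26A, an atypical member without motor activity, had the highest fold at an end, 45.9, with 138 fragments (116 to 163). Its peak on chromosome 14, from 104136004 to 104139154, was 3151 bp wide. The peak at KIF26B was 3414 bp wide, the widest at any kinesin gene, with a fold of 13.2. KIF19, a regulator of cilium length, had a fold of 31.5 with 71 fragments (55.5 to 89.6). KIF9, a motor of motile cilia, had a fold of 23.5 with 70 fragments (54.6 to 88.4). The KIF9 peak is shared with KLHL18, and its summit was 31 bp from the outermost KIF9 start and 12 bp from a CCGGAA match. KIF27 had a fold of 14.2 in a peak shared with LOC105376335. The Hedgehog regulator KIF7 had a fold of 10.1 at its outer 5′ end, 7650 bp upstream of its listed start, and a fold of 6.75 at that start. KIF21A and KIF21B, which restrain microtubule growth, had folds of 9.24 and 7.01. KIF12, an epithelial kinesin, had 2 peaks, both at its 3′ end, with folds of 4.38 and 3.64, and none at its listed starts. KIF6, KIF24 and KIF25 had no peak within 1 kb of an outer end.

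Because either end of a gene counted, the starts were also read on their own. RefSeq start windows were held for 33 of the 39 genes and not for KIF5A, KIF13B, KIF19, KIF21B, KIF26B and KIF27. A peak lay within 1 kb of a listed start for 27 of the 33 genes (81.8%), against 64.4% of the protein-coding genes with a window. These were 10 of 13 mitotic, 11 of 11 transport and 6 of 9 other genes. KIF24, a regulator of ciliation, gained a peak by this measure, with a fold of 16.5. Its summit lay 453 bp upstream of its listed start and 152 bp from an end of NUDT2. A start peak with a fold over 10 was at 2 mitotic genes (15.4%), KIF4A and KIF18B, at 9 transport genes (81.8%) and at 4 others (44.4%), against 47.0%. The medians at the start, with genes without a peak lowest, were again 4.34 and 19.3. Of the 27 start peaks, 24 had their summit within 500 bp of a listed start. Over all 27, the summit was upstream of the start in 14 and downstream in 13.

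The classes differed in pileup, while their control levels were alike in range. Over the genes with a peak, the strongest peak had a median pileup of 16.5 fragments in the mitotic class, from 7 to 52, and of 49.5 in the transport class, from 18 to 198. The control level had medians of 2.24 and 2.07, with ranges of 1.28 to 4.39 and 1.28 to 3.38. The peaks were narrower at mitotic genes, with a median width of 729 bp against 1249 bp. Over all protein-coding genes with a peak, the median pileup was 54 fragments, the median control level 2.03 and the median width 1062.5 bp.

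The start windows of the classes also differed in their letters. CCGGAA, on either strand, was in a window of 7 of 13 mitotic genes (53.8%, Wilson interval 29.1% to 76.8%), of 1 of 11 transport genes (9.09%, 1.62% to 37.7%) and of 3 of 9 others. It was in 26.6% of the 15843 protein-coding genes with a window. CCGGAAG, whose matches are all also matches of CCGGAA, was in 5 mitotic and 0 transport genes, against 16.5% of all. The GGAA core alone was in all 33 genes and in 96.3% of all protein-coding genes, so it separates nothing here. Over all protein-coding genes, with those without a start peak ranked lowest, the median fold at the start was 16.4 where a window held CCGGAA. It was 5.70 where none did. CCGGAA was in 37.7% of the genes with a start peak of a fold over 10. It was in 28.4% of those with a weaker start peak and in 11.1% of those without one. Among the stronger start peaks the medians with and without CCGGAA were 24.9 and 23.1, and among the weaker ones 6.56 and 6.28. The 7 mitotic genes with CCGGAA, which were KIF4A, KIF11, KIF14, KIF18A, KIF20B, KIF22 and KIF23, had a median of 6.08. Of the 6 mitotic genes without it, KIF2B, KIF4B and KIF20A had no start peak, while KIF15 lay below 6.08, KIF2C had 5.95 and KIF18B 14.6. The 10 transport genes without it had a median of 16.3, and KIF5C, the transport gene with it, had 49.3. The motif was thus more frequent in the windows of the class with the lower folds, while KIF5C, which holds it, had the highest fold. In both classes many start summits lay outside the searched windows. Those of KIF13A and KIF5B were 338 bp upstream and 201 bp downstream of the start, those of KIF11 and KIF23 171 and 466 bp downstream. The shares therefore describe the windows and not the letters under the peaks.

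2 further motifs known from cell cycle promoters were searched after the folds had been seen. TTTGAA, the CHR core, was in 9 of 13 mitotic genes (69.2%, 42.4% to 87.3%), in 1 of 11 transport genes, KIF5B, and in 0 of 9 others, against 15.8% of all protein-coding genes. In 8 of the 9 mitotic genes the first match letter was within 35 bp of the start, and in KIF23 it was 55 bp upstream. CCAAT, the box bound by NF-Y, was in 10 mitotic genes (76.9%) and 4 transport genes (36.4%), against 42.1%. Base composition also moved with the classes. In the window nearest the start peak, or the outermost window where there was none, the median share of G and C was 62.0% in the mitotic class, from 48.0% to 68.3%, and 74.0% in the transport class, from 61.7% to 87.0%. Over all protein-coding genes this share was 68.3% where the start peak had a fold over 10, 64.3% where it was weaker and 54.3% where there was none. Its part in the difference between the classes was not tested.

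**Figure D3:**
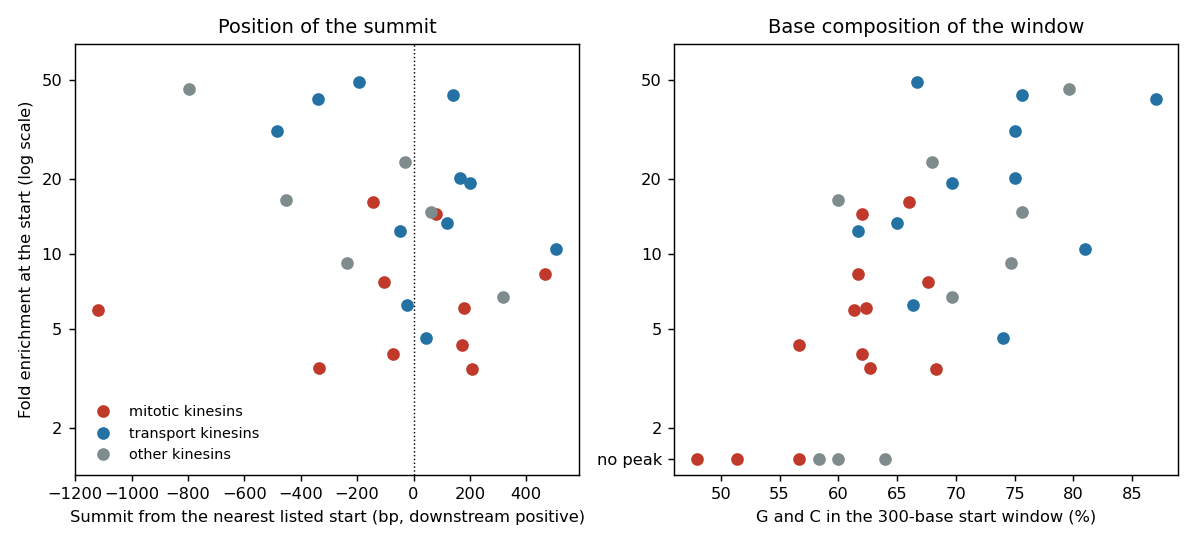
Fold enrichment of the strongest peak at a listed start (vertical, log scale) of kinesin genes by class, against the distance of its summit from the nearest listed start in bp (left, 27 genes) and against the share of G and C in the start window in percent (right, 33 genes, with genes without a start peak at the bottom). Summits lie on both sides of the start in each class, while the mitotic windows stay between 48.0% and 68.3% G and C and the transport windows reach 87.0%.

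Inside the genes, more than 1 kb from both outer ends, 23 of the 39 kinesin genes held 70 summits, or 1.86 per 100 kb, against 1.66 per 100 kb over all protein-coding genes. The mitotic genes held 6 such summits over 0.645 Mb (0.930 per 100 kb) and the transport genes 26 over 1.49 Mb (1.75 per 100 kb). Of the 70, 4 are peaks already described, the start peaks of KIF1A, KIF7 and KIF24 and the end peak of KIF26B, whose summits lie more than 1 kb inside the outer ends. Several inner peaks were stronger than anything at the ends. KIF26B, 554 kb long, held 18 with its end peak, of which the strongest had a fold of 99.4 with 226 fragments (197 to 257) on chromosome 1 from 245260516 to 245261384. KIF6, which had no peak at its ends, held 5, with a fold of 88.0 in the strongest. KIF20B, whose start peak had a fold of 6.08, held a peak 53.8 kb downstream of its start, on chromosome 10 from 89755109 to 89755973, with a fold of 77.1 and 192 fragments (166 to 221). That fold was at or above that of 97.9% of all peaks, and it was the only inner peak of a mitotic gene with a fold over that of KIF4A. KIF16B had an inner peak with a fold of 32.4, KIF25 one of 27.4 and KIF3C one of 26.6. Whether these positions are exonic or intronic was not analysed here.

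**Figure D4:**
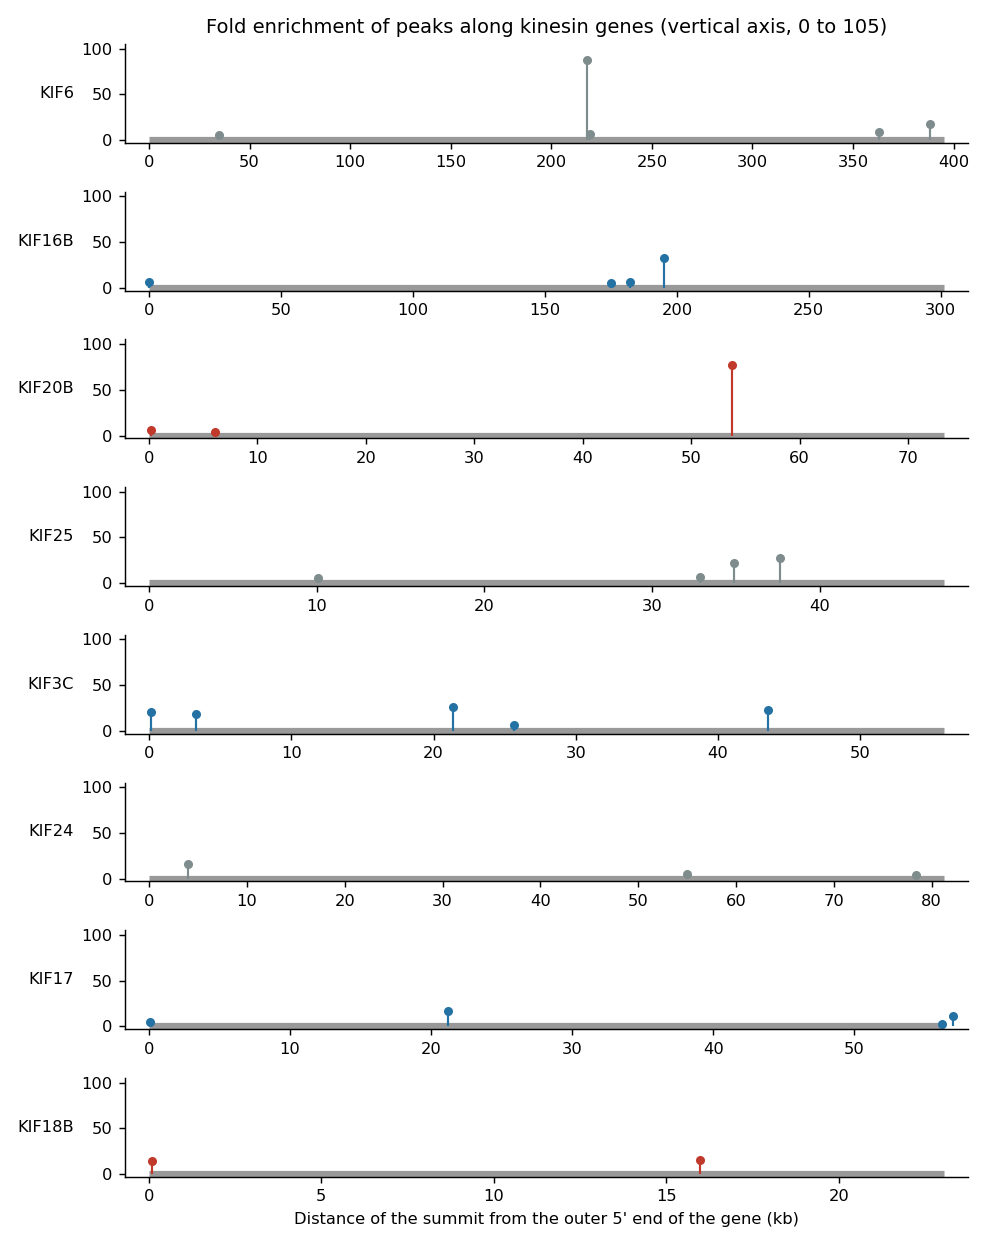
Fold enrichment (vertical) of every peak inside or within 1 kb of the ends of 8 kinesin genes with inner peaks, chosen after these were seen, at the distance of its summit from the outer 5′ end in kb (horizontal, to the scale of each gene, drawn as a grey bar). Mitotic genes are red, transport genes blue and others grey. The tallest peaks lie far from the start in KIF6 (88.0) and KIF20B (77.1), and near the start only weak peaks are seen in KIF16B, KIF17 and KIF20B.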

How the data were processed

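1 anti-Flag immunoprecipitate was compared with 1 input by the authors, who deposited the peaks in narrowPeak layout. Each deposited peak carries a fold enrichment (a ratio of pileup to control), −log10 p-value and −log10 q-value. The deposited score was not used here. The submitters' processing notes name Bowtie2 2.4.1, SAMtools, MACS2 2.2.7.1, deepTools 3.5.0 and hg38. Their settings and the handling of duplicate reads are not given in the sources used here. The Flag antibody is from Sigma in the labels and from CST in the methods.

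The list held 54389 peaks, with a lowest −log10 q of 1.30. Genes and start windows came from RefSeq on GRCh38.p14. A gene was given the peaks whose interval lay within 1 kb of either outer end. The pileup and control level were solved from the fold and p-value, with a Poisson model and a pseudocount of 1, which left at most 0.00785 on the −log10 p scale at any peak. On 20000 simulated peaks 100% of the pileups were recovered. The median pileup was 26 fragments, which limits the precision of single peaks. Intervals cover counting error only, and PCR copies of a fragment are not independent.

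All members may be named. The members, class lists and measures were chosen with earlier results of these data known, and the CHR and CCAAT motifs after the folds were seen. The calculations used scipy 1.17.1 and pandas 2.3.3 in Python 3.11.15.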

Additional observations from a re-analysis of the deposited data

How the results depend on the processing

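The share of kinesin genes with a peak was 82.1%, and 6 of 8 alternatives gave 69.2% to 87.2%. It moved to 53.8% with a fold over 10 required and to 59.0% with a −log10 q over 10, where the shares of all protein-coding genes were 45.2% and 53.6%. At a fold over 5 it was 69.2% against 57.5%. The kinesin intervals at these 3 thresholds, 38.6% to 68.4%, 43.4% to 72.9% and 53.6% to 81.4%, held the share of all genes. The mitotic share of 76.9% moved to 46.2% with a fold over 5, 23.1% with a fold over 10 and 30.8% with a −log10 q over 10. The transport share of 92.3% moved to 100% in a window of 3 kb, which took in KIF5A, and at listed starts, where KIF5A and KIF13B had no window. The ratio of the transport to the mitotic median fold, 4.44, ranged from 3.17 in a window of 3 kb to 4.86 in a window of 500 bp or from the summit. It was 3.98 with KIFC1 and CENPE added to the mitotic class, 3.75 with KIF2A added and 3.24 without KIF2B and KIF4B. With the genes whose strongest peak was shared with another gene left out, the mitotic share was 66.7% and the transport share 90.9%. The ratio was then again 4.44. It has no value under the stricter thresholds, because the mitotic median then falls on a gene without a peak. No paired analysis was possible because each group holds 1 sample. With 7 to 18 fragments at the strongest peak of 6 of the 10 mitotic genes with one, depth limits their ranking, and 1 library gives no spread between replicates.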

Other observations

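4 kinesin genes whose symbols fall outside the rule were read in the same way. KIFC1, a minus-end directed spindle motor, had a fold of 30.9 at its strongest peak within 1 kb of either outer end. This was above the highest fold of the mitotic class, 16.2. That peak need not lie at its start. CENPE, the kinetochore motor, had a fold of 4.84. KIFC2 and KIFC3, further members of the minus-end group, had folds of 8.62 and 6.84.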
